A study of Papio hamadryas with 11 samples.

Results

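The miR-191 and miR-425 cluster is a pair of neighbouring microRNA hairpins. Its members were chosen by name, with earlier results of these data known. They are the 4 mature products hsa-miR-191-5p, hsa-miR-191-3p, hsa-miR-425-5p and hsa-miR-425-3p. These are 4 of the 1921 mature names in the deposited table. All 4 had reads, and 3 of 4 passed the filter on low counts that left 218 miRNAs for testing. The exception was hsa-miR-191-3p.

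A microRNA is a short RNA that guides silencing proteins to complementary messenger RNAs. It is cut from a hairpin whose 5' arm and 3' arm can each give a mature product, and usually one arm is kept far more often than the other. In human, the hairpins of miR-191 and miR-425 lie together in an intron of the gene DALRD3 and are transcribed as a unit. Both 5p products are found in most tissues, and both are used as reference miRNAs in PCR assays of other miRNAs.

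The samples were fetal livers of the baboon Papio hamadryas, 11 in all, taken at 0.9 of gestation and used for small RNA sequencing. The control group comprised 6 fetuses (3 female, 3 male), and the obese group, named for obesity of the mother, comprised 5 (3 female, 2 male). Livers are named here by the mother's group and replicate number, and replicates 1 to 3 of each group were female and the rest male. The maternal diet is not given in the labels used here, and the labels list separate samples without numbering animals, so the spread behind each p-value is that between these samples and may be technical.

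Libraries held 247288 to 319919 reads on known miRNAs in controls and 660569 to 767137 with maternal obesity. The library numbers in the labels were 55 to 60 for controls and 67 to 71 for the obese group, so a library batch and maternal obesity cannot be told apart. All 4 hepatocyte markers on the list used had reads, and their summed level was 337773 to 473875 CPM (reads scaled to a common library total) in controls and 323292 to 416389 CPM with maternal obesity. The liver label was therefore matched by abundant liver markers, with erythroid, leukocyte, endothelial and mesenchymal markers present as well. Their summed levels were 7066 to 16724 CPM in controls and 7302 to 14681 CPM with maternal obesity for the 4 erythroid markers. For the 6 leukocyte markers they were 1137 to 2037 CPM and 973.4 to 1262 CPM. For the 2 endothelial markers they were 9476 to 14290 CPM and 12643 to 17097 CPM. For the 4 mesenchymal markers they were 73677 to 90549 CPM and 88487 to 126608 CPM. With maternal obesity, 1 of 4 tested hepatocyte and 1 of 5 tested leukocyte markers fell past the edgeR threshold, and 1 of 2 endothelial markers rose. None of the 4 erythroid or 4 mesenchymal markers passed it. By comparison, 24 of all 218 tested miRNAs (11%) passed. With so few markers per type, these calls cannot show whether cell types shifted, which was not tested. No marker was at 0 in every library. In these bulk samples, fewer cells of a type and less RNA per cell cannot be told apart.

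The 4 products differed in level by orders of magnitude, and hsa-miR-191-5p carried nearly all reads of the cluster. Levels are CPM after TMM scaling, which adjusts each library for its composition. With 29367 ± 6610 CPM (SD, n = 11), hsa-miR-191-5p ranked 8 of the 645 miRNAs with reads. It took 2.63% ± 0.595 of the library's reads in controls (SD, n = 6) and 3.25% ± 0.306 with maternal obesity (SD, n = 5), with a range of 1.78% to 3.72% over all livers. Among the cluster's own reads it made up 98.3% ± 0.269 in controls and 98.5% ± 0.161 with maternal obesity. The share of hsa-miR-425-5p in the cluster's reads was 1.40% ± 0.213 in controls and 1.33% ± 0.141 with maternal obesity.

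In the order of mean levels, hsa-miR-191-5p stood below hsa-miR-27b-3p (36468 ± 5180 CPM) and hsa-miR-10a-5p (35209 ± 6108 CPM). The latter was above hsa-miR-191-5p in 11 of 11 livers, and hsa-miR-27b-3p was above it in 9 of 11. The next miRNAs down were hsa-miR-92a-3p (21242 ± 2190 CPM) and hsa-let-7f-5p (20209 ± 4012 CPM), which exceeded hsa-miR-191-5p in 1 and 2 of the 11 livers. The place of hsa-miR-191-5p in this order was thus held in most livers but not in all of them.

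The other members had close neighbours. With 399.9 ± 63.7 CPM (SD, n = 11), hsa-miR-425-5p ranked 87, between hsa-miR-200b-3p (401.8 ± 130.2 CPM) and hsa-miR-140-3p (387.3 ± 56.4 CPM). The miRNAs one place further away were hsa-miR-299-3p (422.7 ± 109.0 CPM) and hsa-miR-107 (383.5 ± 75.8 CPM). With 64.1 ± 16.1 CPM, hsa-miR-425-3p ranked 177, between hsa-miR-222-3p (64.5 ± 21.4 CPM) and hsa-miR-378a-5p (63.95 ± 33.5 CPM), with hsa-miR-106b-5p (64.65 ± 14.2 CPM) and hsa-miR-30d-3p (62.8 ± 6.81 CPM) next to those. The gaps to all of these neighbours were smaller than their spreads over livers, so the order around both members is not resolved. The passenger arm hsa-miR-191-3p ranked 409.

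The dominant product, hsa-miR-191-5p, was measured in control livers 1 to 6 at 26444, 27686, 38988, 16230, 26352 and 23792 CPM. In livers 1 to 5 of the obese group it was measured at 32013, 27432, 31881, 33622 and 38593 CPM. The group means were 26582 ± 7350 CPM (SD, n = 6) and 32708 ± 4015 CPM (SD, n = 5). Control liver 3 was the highest of all 11 and control liver 4 the lowest, so the control group spanned the whole obese group.

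The guide product of the other hairpin, hsa-miR-425-5p, was measured in control livers 1 to 6 at 395.4, 324.2, 444.8, 265.1, 378.5 and 391.9 CPM. In the obese group, livers 1 to 5 had 443.8, 389.1, 492.6, 416.4 and 456.8 CPM. The group means were 366.7 ± 63.0 CPM (SD, n = 6) and 439.7 ± 39.4 CPM (SD, n = 5). Control liver 4 was again the lowest, 2 of 5 livers of the obese group lay above all controls, and the groups overlapped. These levels rest on 72 to 132 reads per control library and 291 to 377 reads per library of the obese group.

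The opposite arm of that hairpin, hsa-miR-425-3p, was measured in control livers 1 to 6 at 48.95, 55.3, 97.7, 73.6, 82.1 and 48.6 CPM. In the obese group, livers 1 to 5 had 46.8, 55.4, 70.6, 69.2 and 56.5 CPM. The group means were 67.7 ± 20.1 CPM (SD, n = 6) and 59.7 ± 10.04 CPM (SD, n = 5). The highest value was in control liver 3, as for hsa-miR-191-5p, and the groups overlapped over most of their range. Only 13 to 29 reads per control library and 31 to 54 reads per library of the obese group lie behind these levels.

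The rarest product, hsa-miR-191-3p, had 2, 1, 0, 1, 0 and 0 reads in control livers 1 to 6 and 2, 1, 1, 2 and 1 reads in livers 1 to 5 of the obese group. That makes 11 reads in 8 of 11 livers. In the 3 control livers with no read, a count of 0 allows a level of up to 9.38, 11.4 and 10.05 CPM in livers 3, 5 and 6. Unlike the other levels, these limits are CPM of the library's total, without TMM scaling. At this depth hsa-miR-191-3p did not pass the filter on low counts, and whether the groups differed was not judged.

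**Figure D1:**
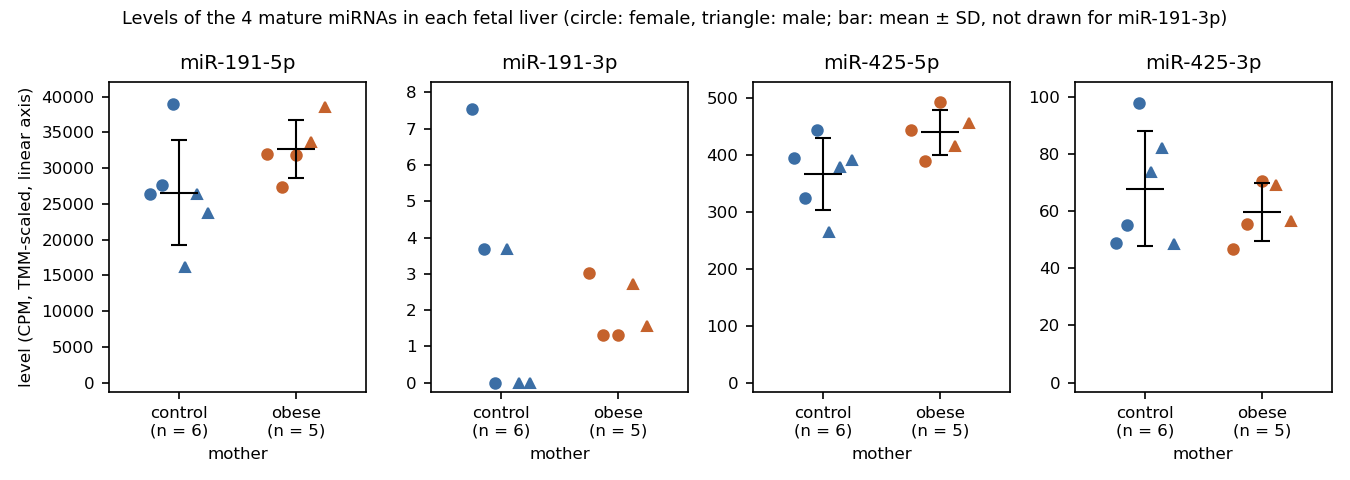
Level of each of the 4 mature miRNAs in each fetal liver, in CPM after TMM scaling on linear axes that differ between panels, for 6 livers of control mothers and 5 of obese mothers. Bars give the mean and SD, and are left out for miR-191-3p, which had 0 to 2 reads per library. The groups overlap in every panel, and control liver 4 is lowest for miR-191-5p and miR-425-5p.

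The main comparison was between fetuses of obese and control mothers, the question named in the series' title. No member passed the threshold, an adjusted p of 0.05 in edgeR's quasi-likelihood test with Benjamini-Hochberg adjustment over 218 miRNAs. The log2 difference of hsa-miR-191-5p was 0.30 (SE 0.17, 95% interval -0.09 to 0.69, adjusted p = 0.311 in edgeR), a level 1.23 times that of controls. For hsa-miR-425-5p the log2 difference was 0.26 (SE 0.14, interval -0.06 to 0.58, adjusted p = 0.288 in edgeR), a level 1.20 times that of controls. For hsa-miR-425-3p it was -0.18 (SE 0.22, interval -0.68 to 0.32, adjusted p = 0.657 in edgeR). The 5p products of both hairpins thus had estimates above 0 and the 3p product one below 0, with each interval including 0.

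Over all tested miRNAs, 24 of 218 (11%) passed that threshold, 10 higher and 14 lower, and the median log2 difference was -0.05. Among the members, 0 of 3 passed in edgeR, DESeq2 or limma-voom, and 0, 1 and 0 of 3 had an unadjusted p under 0.05 in those tools. The hepatocyte, leukocyte, endothelial and mesenchymal marker levels given above also differed in range between the groups, though the ranges overlapped. The part of these markers in the estimates was not tested. Control liver 4 had the lowest mesenchymal sum (73677 CPM) and the highest endothelial sum (14290 CPM) of the controls. Counted from the lowest control, it ranked 3 for the hepatocyte sum, 3 for the erythroid sum and 4 for the leukocyte sum. Groups did not overlap for 18 of 218 miRNAs (8.26%) and for 0 of 3 members. The estimate for hsa-miR-191-5p depended on individual controls, since it was 0.18 without control liver 4 and 0.45 without control liver 3 (adjusted p = 0.0912 in edgeR). That for hsa-miR-425-5p was 0.17 without control liver 4. For hsa-miR-425-3p it was -0.03 without control liver 3, -0.07 without liver 1 of the obese group and -0.10 without control liver 5. With counts thinned to the smallest library it was -0.35 (adjusted p = 0.438 in edgeR).

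Within males the data for hsa-miR-191-5p were further apart than in females. Control males had 22125 ± 5263 CPM (SD, n = 3) and males of the obese group 36108 CPM on average, from 33622 and 38593 CPM in the 2 livers. Both livers of the obese group lay above all 3 control males. In females the means were 31039 ± 6911 CPM in controls and 30442 ± 2607 CPM with maternal obesity (SD, n = 3 each), and the groups overlapped.

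In males, the log2 difference of hsa-miR-191-5p was 0.71 (SE 0.21, interval 0.20 to 1.21), which did not pass the threshold (adjusted p = 0.0763 in edgeR over 218 miRNAs). In that comparison 9 of 218 miRNAs (4.13%) passed, and hsa-miR-191-5p ranked 17 by p. Without the filter on low counts it was past the threshold, with a log2 difference of 0.77 (adjusted p = 0.00423 in edgeR over 645 miRNAs). It did not pass with RLE factors (0.74, adjusted p = 0.0638 in edgeR) or total counts (0.56, adjusted p = 0.112 in edgeR). Nor did it pass with any 1 control liver left out. The lowest adjusted p among those fits was 0.0504 in edgeR, without control liver 5. Without control liver 4, the lowest of the controls, the difference was 0.49 (adjusted p = 0.159 in edgeR).

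In females, the log2 difference of hsa-miR-191-5p was -0.03 (SE 0.19, interval -0.49 to 0.43, adjusted p = 0.958 in edgeR), in a comparison where 13 of 218 miRNAs (5.96%) passed. The sign of that value changed with the scaling, and it was 0.01 with RLE factors and 0.10 with total counts. The effect in males minus that in females was 0.73 on the log2 scale (SE 0.29, interval 0.05 to 1.42) and did not pass the threshold over 218 miRNAs (adjusted p = 0.575 in edgeR). With scaling to total counts it was 0.47 (adjusted p = 0.432 in edgeR). Of 218 miRNAs, 0 (0%) passed this test of the difference between sexes, and 14 had an unadjusted p under 0.05.

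The miR-425 products did not separate the groups by the test in either sex. Control and obese-group females had 388.1 ± 60.6 and 441.8 ± 51.8 CPM of hsa-miR-425-5p (SD, n = 3 each), a log2 difference of 0.19 (interval -0.28 to 0.65, adjusted p = 0.700 in edgeR). Control males had 345.2 ± 69.7 CPM and males of the obese group 436.6 CPM, a log2 difference of 0.34 (interval -0.18 to 0.86, adjusted p = 0.398 in edgeR). The male difference was 0.15 without control liver 4 and 0.19 with total counts, and the female one 0.06 without control liver 2, 0.10 without liver 3 of the obese group and 0.31 with total counts. Males of the obese group lay above all control males for this product too. With so few livers, groups that do not overlap were common, at 75 of 218 miRNAs (34.4%) in males and 62 of 218 (28.4%) in females. Of the 3 tested members, 2 did not overlap in males and 0 in females.

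For hsa-miR-425-3p the log2 difference was -0.23 in females (interval -0.98 to 0.52, adjusted p = 0.774 in edgeR) and -0.11 in males (interval -0.93 to 0.72, adjusted p = 0.936 in edgeR). The difference of the effects between sexes was 0.15 on the log2 scale for hsa-miR-425-5p (interval -0.55 to 0.85, adjusted p = 0.911 in edgeR) and 0.12 for hsa-miR-425-3p (interval -0.98 to 1.23, adjusted p = 0.974 in edgeR). With scaling to total counts these values were -0.12 and -0.16, so that their sign depends on the scaling.

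Males and females were also compared with the mother's group in the model, and 0 of 218 miRNAs (0%) passed in edgeR, with 22 at an unadjusted p under 0.05. The log2 difference of males from females was -0.16 for hsa-miR-191-5p (interval -0.56 to 0.24, adjusted p = 0.902 in edgeR). It was -0.10 for hsa-miR-425-5p (interval -0.43 to 0.24, adjusted p = 0.922 in edgeR) and 0.06 for hsa-miR-425-3p (interval -0.46 to 0.59, adjusted p = 0.957 in edgeR). No member passed this test, which takes the sex difference as the same in both mothers' groups. For hsa-miR-191-5p the means differed in opposite directions. They were 22125 CPM in control males against 31039 CPM in control females, and 36108 against 30442 CPM in the obese group.

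**Figure D2:**
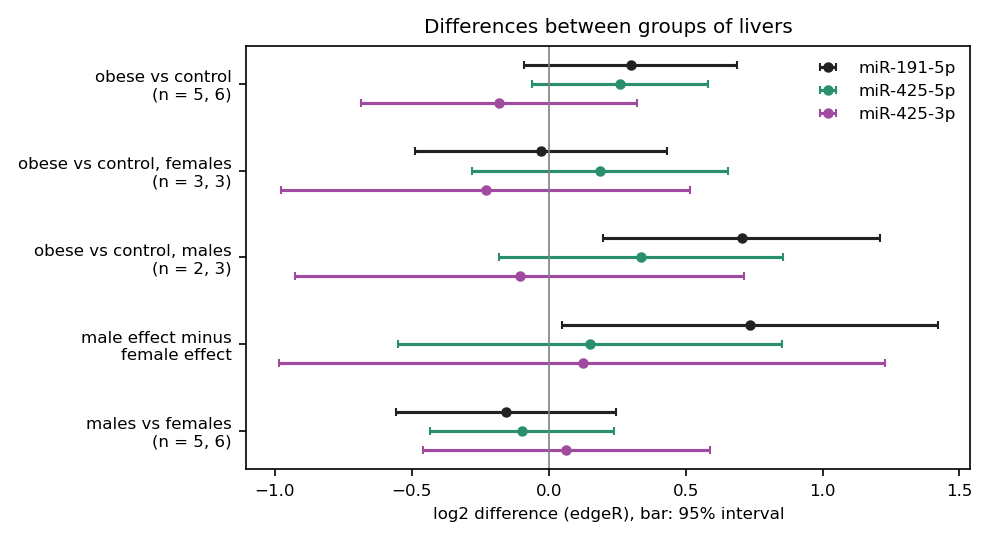
Log2 differences of 3 members from edgeR, with 95% intervals built from their SE. Shown are the obese group against controls in all livers, in females and in males, the male minus the female effect, and males against females. The interval of miR-191-5p lies above 0 in males (0.20 to 1.21) and for the difference between sexes (0.05 to 1.42), and neither passed the threshold after adjustment over 218 miRNAs. With total counts the difference between sexes was 0.47 in place of 0.73.

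The hairpins differed in how their arms were used. Of the reads on the miR-191 hairpin, the 3p arm gave 0.00884% in controls (4 reads against 45240, exact Clopper-Pearson 95% interval 0.00241 to 0.0226%). With maternal obesity it gave 0.00605% (7 reads against 115779, interval 0.00243 to 0.0125%). In the 3 control livers with no 3p read, a count of 0 allows a 3p share of up to 0.0259%, 0.0407% and 0.0408% of the hairpin's reads in livers 3, 5 and 6. Use of the 5p arm was therefore close to complete at every depth sequenced.

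Of the reads on the miR-425 hairpin, the 3p arm gave 15.6% in controls (115 reads against 624, exact interval 13.02 to 18.4%) and 12.0% with maternal obesity (214 reads against 1564, exact interval 10.6 to 13.6%). These intervals and the limits for a count of 0 cover counting error only. By liver, the 3p share was 15.7% ± 4.28 in controls (SD, n = 6) and 11.96% ± 1.77 with maternal obesity (SD, n = 5), and ranged from 9.54% to 21.7%. The lower end was liver 1 of the obese group, with 294 reads of the 5p and 31 of the 3p arm, and the upper end control liver 4, with 72 and 20 reads.

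The log2 ratio of 5p to 3p reads of miR-425 was 0.44 higher with maternal obesity (SE 0.23, interval -0.07 to 0.95), which did not pass the threshold (adjusted p = 0.286, limma over 41 hairpins with both arms tested). In that comparison 1 of 41 hairpins (2.44%) passed, and miR-425 ranked 8 by p and 22 by its SD over livers, counted from the smallest. The miR-191 hairpin was not among the 41, because its 3p arm did not pass the filter on low counts.

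Since the hairpins are parts of a shared transcript, the ratio of their 5p products was followed in each liver. With 0.5 added to each count, hsa-miR-191-5p had on average 72.3 times the reads of hsa-miR-425-5p, and the ratio ran from 60.5 in control liver 6 to 87.3 in control liver 3. The mean log2 ratio was 6.15 ± 0.232 in controls (SD, n = 6) and 6.21 ± 0.155 with maternal obesity (SD, n = 5). The difference of 0.07 (95% interval -0.21 to 0.34) was smaller than the spread within groups (two-sided exact permutation test, p = 0.593, adjusted p = 0.593 over 3 ratios). It was 0.02 without liver 5 of the obese group and 0.13 without control liver 3. This ratio is one of reads, and its relation to molecules was not tested.

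The ratios to hsa-miR-425-3p varied more. The log2 ratio of hsa-miR-425-5p to hsa-miR-425-3p was 2.44 ± 0.466 in controls and 2.88 ± 0.244 with maternal obesity (two-sided exact permutation test, p = 0.0974, adjusted p = 0.146 over 3 ratios). That of hsa-miR-191-5p to hsa-miR-425-3p was 8.58 ± 0.486 in controls and 9.09 ± 0.284 with maternal obesity (two-sided exact permutation test, p = 0.0736, adjusted p = 0.146). The differences of 0.44 (95% interval -0.08 to 0.97) and 0.51 (interval -0.05 to 1.07) were about as large as the SD over all livers, 0.431 and 0.470, and neither passed 0.05. The smallest p this design allows is 0.00216.

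Across the 11 livers, hsa-miR-191-5p and hsa-miR-425-5p varied together. Pearson's r of log2 CPM was 0.852 (permutation test, p = 0.00184, adjusted p = 0.00552 over 3 pairs) and Spearman's rho was 0.755 (permutation test, p = 0.0103, adjusted p = 0.0310). In the 6 controls alone r was 0.845 (exact permutation test, p = 0.0542) and rho was 0.60 (exact permutation test, p = 0.242). With values centred on the group means, r was 0.798.

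Leaving out the livers farthest from the median of hsa-miR-191-5p, control livers 4 and 3, gave an r of 0.632 over 9 livers (exact permutation test, p = 0.0659). The relation no longer passed 0.05. Leaving out the most extreme livers narrows the range and the number of livers. The drop in r therefore cannot tell whether the relation rests on them. Neither of these products varied with hsa-miR-425-3p to a detectable degree. Against hsa-miR-191-5p, r was 0.110 and rho 0.146 (permutation tests, p = 0.752 and 0.671, adjusted p = 0.934 and 0.946). Against hsa-miR-425-5p, from the same hairpin, r was -0.0288 and rho 0.0273 (permutation tests, p = 0.934 and 0.946, adjusted p = 0.934 and 0.946). Without control livers 4 and 3, r with hsa-miR-191-5p was 0.159. Without control liver 4 and liver 3 of the obese group, the farthest from the median of hsa-miR-425-5p, r with hsa-miR-425-5p was 0.150. Low counts limit this, since counting alone gave hsa-miR-425-3p a coefficient of variation of 20.5%, against the 25.2% observed.

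**Figure D3:**
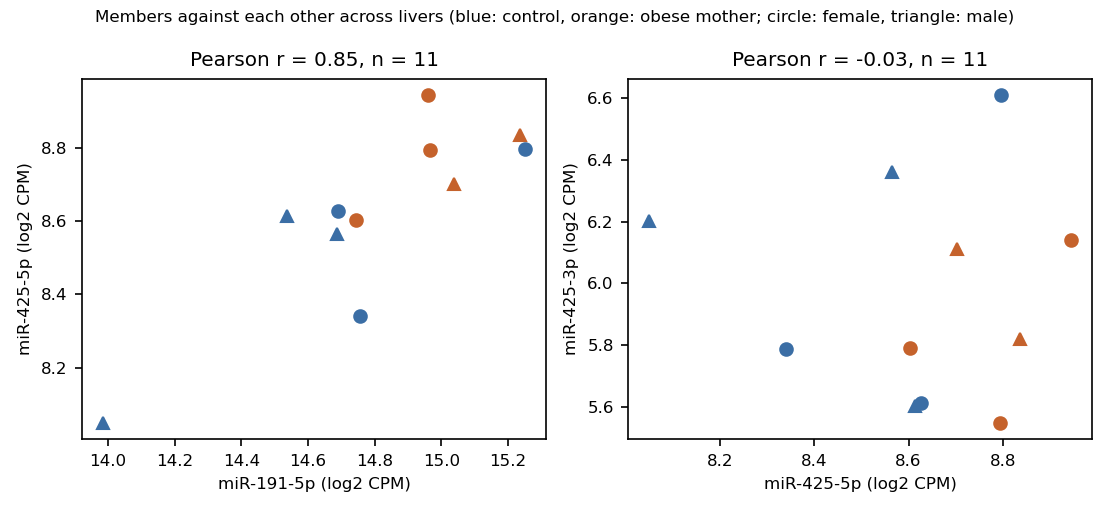
Log2 CPM of miR-425-5p against miR-191-5p (left) and of miR-425-3p against miR-425-5p (right) in the 11 livers, by mother's group and fetal sex. The 5p products vary together (r = 0.85), with control liver 4 alone at the lower left, while the arms of the miR-425 hairpin show no such pattern (r = -0.03).

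The miRNAs most like each member over the 11 livers were ranked by Pearson's r of log2 CPM among 217 others, as a description. For hsa-miR-191-5p these were hsa-miR-100-5p (r = 0.956), hsa-miR-500a-3p (r = 0.869) and hsa-miR-10a-5p (r = 0.857), with hsa-miR-425-5p ranking 4. For hsa-miR-425-5p they were hsa-miR-16-5p (r = 0.903), hsa-miR-369-5p (r = 0.852) and hsa-miR-186-5p (r = 0.813), with hsa-miR-191-5p ranking 3 between the latter. The cluster partner was thus near the top of both lists without leading either. For hsa-miR-425-3p they were hsa-miR-200b-3p (r = 0.761), hsa-miR-29a-3p (r = 0.710) and hsa-miR-376b (r = 0.673), and hsa-miR-191-5p and hsa-miR-425-5p ranked 77 and 116. All of these values share the same 11 libraries and scaling, and hsa-miR-100-5p, hsa-miR-10a-5p and hsa-miR-500a-3p have close sequence relatives with which reads may have been shared.

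Other miRNAs that are neighbours in the human genome gave a scale for the ratio of the cluster's 5p products. Of 22 such pairs listed, 18 had both miRNAs tested. The SD of the log2 ratio over the 11 livers was lowest for hsa-miR-191-5p with hsa-miR-425-5p, at 0.194, where counting reads alone gives 0.121. Next came hsa-miR-17-5p with hsa-miR-20a-5p at 0.221, with 0.179 from counting. The highest SD was 0.572 for hsa-miR-182-5p with hsa-miR-183-5p, with 0.594 from counting, so the spread of that pair was no larger than counting gives. By r of log2 CPM the cluster's pair ranked 2 of 18, behind hsa-miR-144-5p with hsa-miR-451a (r = 0.865). The size of the read ratio ranked 3 of 18. Both other pairs named by SD lay closer to their counting SD than the cluster's pair did. The lowest SD alone therefore does not show the steadiest ratio. Counting error differs between pairs, and no test was made of this order.

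**Figure D4:**
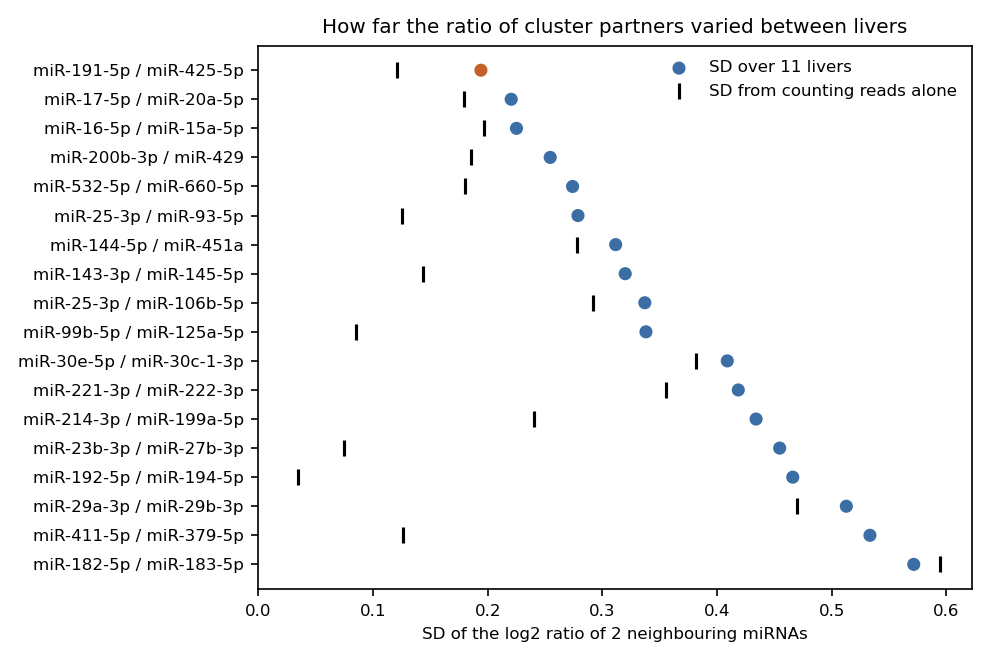
SD of the log2 ratio of 2 neighbouring miRNAs over the 11 livers for 18 pairs (points), with the SD from counting reads alone (ticks). The pair of miR-191-5p and miR-425-5p (orange) has the lowest SD, 0.194, and several other pairs lie close to their counting SD.

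Both 5p products are among the miRNAs often used as references, so their spread was viewed within a list of 18 such miRNAs. The list includes both products, and 17 of its miRNAs were tested. None of the 17 passed the edgeR threshold between mothers' groups, with 8 estimates above 0 and 9 below and a median log2 difference of -0.01, against -0.05 and 24 calls over all 218. The coefficient of variation over 11 livers was lowest for hsa-miR-30e-5p (7.68%), hsa-miR-103a-3p (8.42%) and hsa-miR-186-5p (9.54%). It was highest for hsa-miR-484 (24.2%), hsa-miR-191-5p (22.5%) and hsa-let-7a-5p (22.4%). The median was 15.9% over the list, which is the value of hsa-miR-425-5p itself, and 24.9% over all 218.

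Within this list hsa-miR-191-5p had rank 16 of 17 by rising variation, and hsa-miR-425-5p rank 9 with 15.9%. Among all 218 miRNAs their ranks were 92 and 39, and that of hsa-miR-425-3p was 110. Among the 20 most abundant miRNAs, hsa-miR-191-5p ranked 18. Its highest level was 2.40 times its lowest, while counting alone gives it a variation of 0.990%. For hsa-miR-425-5p counting alone gives 8.32%.

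**Figure D5:**
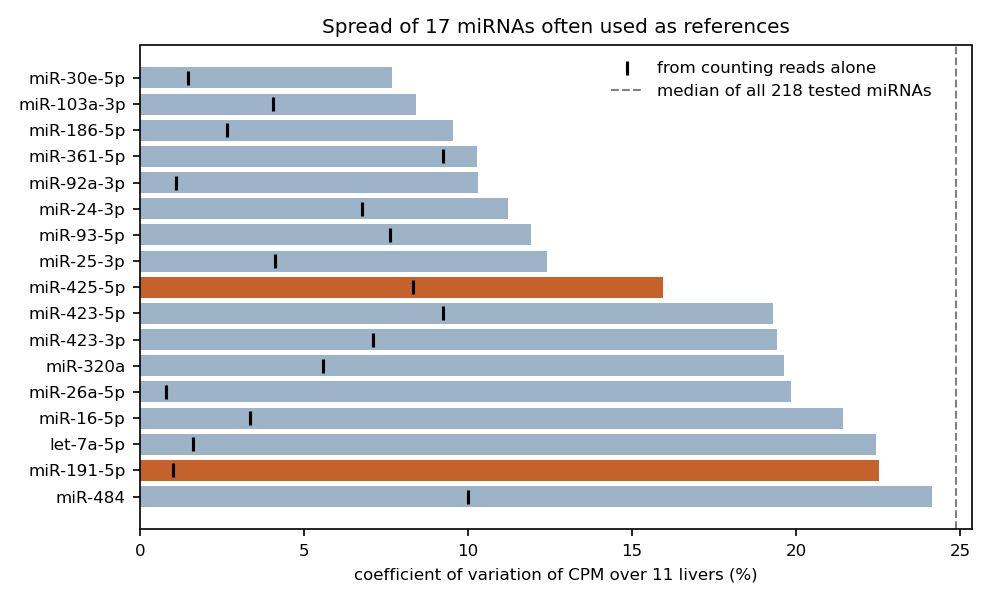
Coefficient of variation of CPM over the 11 livers for 17 miRNAs often used as references (bars), the variation from counting reads alone (ticks) and the median over all 218 tested miRNAs (dashed line, 24.9%). The bar of miR-191-5p (orange, 22.5%) is the second longest and its tick is near 0, while miR-425-5p (orange, 15.9%) lies in the middle.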

How the data were processed

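Small RNA from 11 fetal livers was sequenced, and known miRNAs were tabulated. The authors deposited read counts per mature miRNA and precursor. Per the file headers, the same table holds normalised values, a signal that equals CPM of the library's total within 0.00500. The human build hg18 is named in the submitters' processing notes and the miRNA names carry the human prefix, so the baboon reads were assigned to human miRNAs. The counting settings are not given in the labels or headers. The table repeats its 2234 rows, giving 4468, and each row was used once. For miRNAs listed under more than 1 precursor (313 further rows) only the row with the most reads was kept. Each member had 1 row. A separate table of predicted miRNAs was not used here.

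The count tests used edgeR 4.0.16 under R 4.3.3, with TMM factors (0.918 to 1.10), its default filter and the quasi-likelihood test. The 218 miRNAs kept held 99.62% or more of every library, and libraries span 247288 to 767137 reads. P-values were adjusted by Benjamini-Hochberg over all 218, with a threshold of 0.05. Arm ratios were tested with limma 3.58.1 on log2((5p + 0.5)/(3p + 0.5)). Effects by sex came from a model with a mean per group and sex. Intervals of the edgeR and limma differences were built from the SE with residual degrees of freedom. An interval can therefore be wider than its p-value implies. Other ratios had exact permutation tests over 462 assignments, and correlations 100000 resamples (SciPy 1.17.1). DESeq2 1.42.0 and limma-voom were alternatives, with RLE factors, total counts, no filter, thinning and libraries left out. The scripts were checked on generated counts with known changes.

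The members and lists were chosen with earlier results of these data known. Besides the members, the text names the reference miRNAs with the 3 lowest and 3 highest coefficients of variation, the 3 miRNAs most like each member, the extreme cluster pairs and the 2 neighbours on each side of a member in level. The next lowest cluster pair and the pair with the highest r were named after their values were seen.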

Additional observations from a re-analysis of the deposited data

How the results depend on the processing

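Between mothers' groups, all 63 alternative values of the 3 tested members (21 settings each) kept their direction and did not pass the threshold, with a lowest adjusted p of 0.0912 in edgeR. The count of 24 miRNAs ranged from 16 to 29 over these settings, which tested 200 to 645 miRNAs. With a replicate block, which also leaves out control liver 6, the log2 differences of hsa-miR-191-5p, hsa-miR-425-5p and hsa-miR-425-3p were 0.32, 0.30 and -0.24, with 17 miRNAs called. The same livers with no replicate block gave 0.27, 0.28 and -0.25, with 20 called. That fit is also the one without control liver 6, so it counts 2 times among the 21 settings. The arm ratio of miR-425 was 0.55 with the block and 0.55 without control liver 6 alone. Deviations of same-numbered livers from their group means had correlations of -0.166 to 0.304, and 2 of 5 were best with their own number. The labels used here give such livers only fetal sex and a number in common. Whether they share more was not tested. Of 67 hairpins with a read of both arms in every library, 4 passed the arm-ratio test, against 1 of 41 in the main fit. With a library left out, 1 to 5 of 42 to 51 passed. With no filter, 645 miRNAs were tested in place of 218. Of these, 27 passed in males, 11 for the difference between sexes and 6 between males and females. In that setting hsa-miR-191-5p in males was 0.77. With a library left out, 0 to 25 passed in females and 0 to 13 in males. In females, hsa-miR-191-5p was 0.012 with RLE factors, 0.063 with no filter and 0.10 with total counts, and -0.13 to 0.15 with a library left out. With total counts the difference between sexes was -0.16 for hsa-miR-425-3p and -0.12 for hsa-miR-425-5p, where the median over all miRNAs was -0.33 instead of -0.05. With a library left out, these were -0.20 to 0.30 and -0.030 to 0.30. Leaving out a library also gave, for hsa-miR-425-3p, -0.41 to 0.13 in females and -0.29 to 0.079 in males. Males against females it gave -0.23 to 0.0046 for hsa-miR-191-5p and -0.15 to 0.014 for hsa-miR-425-5p. The r of hsa-miR-425-5p and hsa-miR-425-3p was 0.0148 with total counts and 0.126 with centred values. The cause of these changes was not tested. Depth limits hsa-miR-191-3p, with 0 to 2 reads per library, and hsa-miR-425-3p, with 13 to 54.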
